A study of Bos taurus with 12 samples.

Results

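The RNA described here came from the 6 control libraries among 12 libraries of bovine cumulus-oocyte complexes, and these were chosen by their columns in the raw count table. Each library was made from polyA RNA of a group of 50 complexes that had matured in vitro in 4-well plates in control medium, with no particles added, and was sequenced as paired reads of 150 bases. The study set such complexes beside complexes that matured with polystyrene nanoplastics, and those 6 libraries are not described here. The samples are described in the labels as independently prepared, out of 3 batches of bovine material. No label ties a sample to its batch, and values within batches were therefore not computed. The sources used here give neither age nor breed of the animals, nor the length of the culture.

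A cumulus-oocyte complex is an oocyte wrapped in several layers of somatic cumulus cells, which are a specialised form of granulosa cell. The oocyte stores maternal transcripts while it grows, and during maturation it resumes meiosis, is largely silent in transcription and begins to use and degrade them. It secretes growth factors such as BMP15 and GDF9 that act on the surrounding cells. The cumulus cells in turn spin a matrix of hyaluronan held together by proteins and proteoglycans, and they pass metabolites such as pyruvate to the oocyte, which uses little glucose of its own.

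All 6 libraries carried transcripts of both cell types. VCAN, the large proteoglycan versican of the cumulus matrix, ranked 2nd of 17980 gene rows by mean CPM, the counts of a row per 1000000 counted reads of its library. SERPINE2, an inhibitor of serine proteases such as the plasminogen activators, ranked 6th. UCHL1, a ubiquitin hydrolase that is plentiful in oocytes and neurons, ranked 161st, and BMP15, the oocyte growth factor, ranked 3073rd. CPM is not divided by transcript length, because lengths were not at hand, so an order of genes by CPM is an order by read share and not by number of molecules. In bulk RNA of this kind, fewer cells of a type and less RNA per cell cannot be told apart.

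The libraries held between 15873865 counted reads in Control 6 and 20008464 in Control 2. Between 13852 and 14224 gene rows had a read in a library, 13089 rows had one in all 6, and 2847 rows had none in any. Every pair of libraries differed by more than counting noise, and the closest pair, Control 3 and Control 6, had a chi-square of 8.29 per degree of freedom. Control 5 stood apart, with values of 24.2 to 39.3 against the other libraries, where pairs without it gave 8.29 to 27.1. On the first principal component of log2 CPM, which held 47.4% of the variance, it scored 14.4 where the others lay between -7.77 and 3.76. Several results that rest on it, but not all, are given below with and without it.

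Read share was concentrated in few genes. The most abundant row, MFGE8, took 2.45% of all counted reads, the 10 most abundant rows took 8.53%, and the 100 most abundant took 22.8% ± 0.657 (SD, n = 6). From the top of the ranking down, 718 rows made up 50% of the reads and 5037 rows made up 90%. By mean CPM, 94 rows reached at least 1000, 2056 lay between 100 and 1000, 6728 between 10 and 100, 2928 between 1 and 10, and 3327 below 1 but above 0.

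MFGE8 encodes lactadherin, a secreted glycoprotein that binds phosphatidylserine on dying cells and on vesicles. Its CPM had a lowest value of 22173, a median of 24230 and a highest value of 28060.1, so its lowest library lay above the highest value of every other gene in any library. VCAN followed at 8914, 10477 and 10708, with 5 libraries between 9947 and 10708 and Control 5 below them. EEF1A1, the elongation factor that brings aminoacyl-tRNA to the ribosome, reached 9639 CPM ± 449.9 (SD, n = 6). The mitochondrially encoded COX1, a catalytic subunit of cytochrome c oxidase, reached 8972 CPM ± 869 (SD, n = 6). The ranges of VCAN, EEF1A1 and COX1 overlapped, so their order by the mean is not fixed by these libraries.

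SERPINA14, a serpin best known as the uterine serpin of ruminants, ranked 5th at 7003 CPM ± 978 (SD, n = 6), from 5368 in Control 5 to 7948 in Control 4. SERPINE2 stood beside it at 6573 CPM ± 482 (SD, n = 6), and the ranges of these 2 protease inhibitors overlapped too. LAPTM4B, a membrane protein of lysosomes and late endosomes, had 5435 CPM ± 220.1 (SD, n = 6), and MRO had 5412 CPM ± 451 (SD, n = 6). EEF2, the translocation factor of the ribosome, had 3879 CPM ± 358 (SD, n = 6).

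HIF1A, which encodes the oxygen-regulated subunit of a hypoxia-inducible transcription factor whose protein is destroyed when oxygen is plentiful, ranked 10th. Its CPM ran from 3456 through a median of 3787 to 4071, and its spread was small, with an SD of log2 CPM of 0.09 over the 6 libraries. Below it came SRGN, the granule proteoglycan serglycin, at 3515 CPM, and SCD, the desaturase that makes monounsaturated fatty acids, at 3445 CPM. HSPB1, a small heat shock protein, had 3090 CPM, and RARRES2, the secreted ligand chemerin, had 2815 CPM. STRA6, a membrane receptor that takes up retinol, stood at 2530 CPM, and CTNNB1, the adhesion and Wnt signalling protein beta-catenin, at 2392 CPM.

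When the 100 most abundant rows were sorted by hand into classes, secreted and matrix products formed the largest class, both in members and in reads. This sorting was done after the values were seen. The class had 21 members and 8.12% of all counted reads ± 0.538 (SD, n = 6), which was 35.6% of the reads of the 100 rows. Besides those named, it held THBS1 and THBS2, which are matricellular thrombospondins, at 2806 and 2669 CPM, and COL4A1, a chain of basement membrane collagen, at 2735 CPM. It also held LTBP1, which anchors latent TGF-beta in the matrix, at 2712 CPM, and PLAT, the tissue-type plasminogen activator that SERPINE2 can inhibit, at 2274 CPM.

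The protein synthesis machinery came next. There were 7 translation factors with 2.18% of all counted reads, and 15 ribosomal protein genes with 2.14%. The 10 genes of membrane, adhesion and junction proteins had 2.05%, the 8 mitochondrially encoded genes 1.96%, and the 12 genes of transcription, chromatin and RNA factors 1.89%. The ranges of the translation, ribosomal and membrane classes overlapped, so these were not ordered. The mitochondrially encoded genes ran from 1.66% to 2.18% and overlapped every one of these classes. The transcription, chromatin and RNA factors, at 1.76% to 1.96%, lay below the translation, ribosomal and membrane classes in every library. The 8 metabolic enzymes and carriers had 1.39% ± 0.187 (SD, n = 6), the 7 chaperones and ubiquitin genes 1.19%, the 7 cytoskeleton and motor genes 0.769%, and 5 genes of signalling and other function 1.14%. No gene on the list of oocyte products was among the 100.

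**Figure D1:**
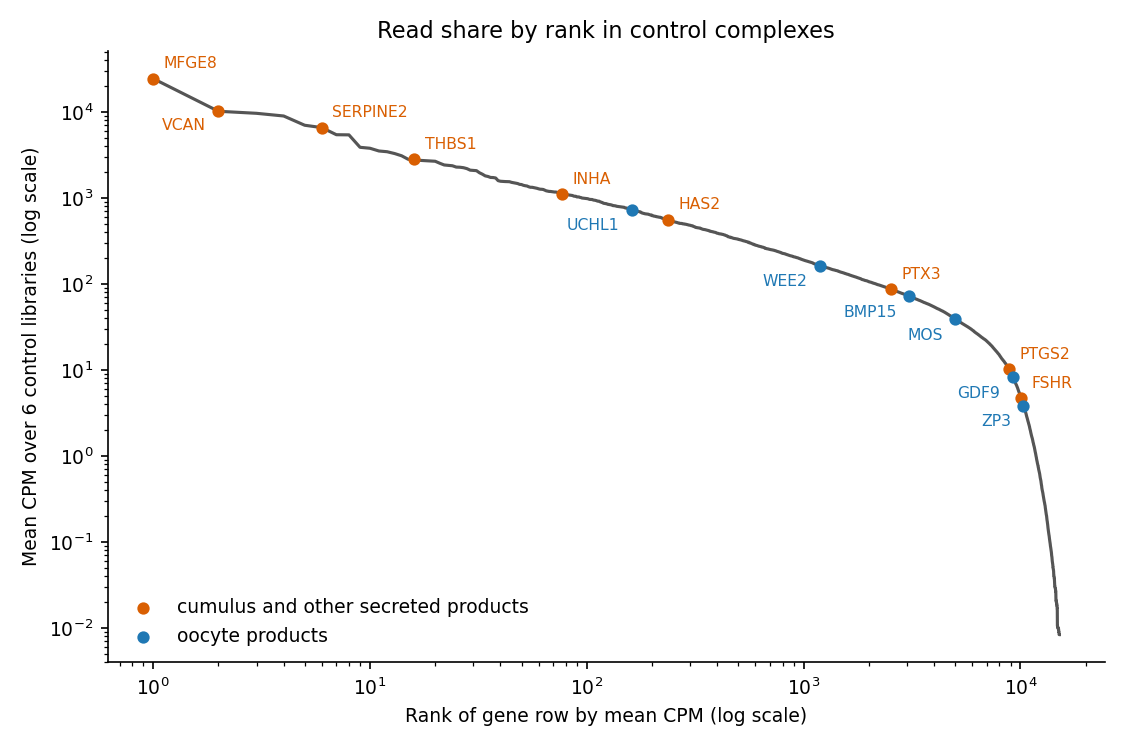
Mean CPM over the 6 control libraries (vertical, log scale) against the rank of each gene row (horizontal, log scale), with genes named in the text marked. MFGE8 stands apart at 24454 CPM, and the oocyte products start with UCHL1 at rank 161.

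Cumulus matrix and expansion products ranged from VCAN at rank 2 down to genes with hardly a read. Of 20 genes on the list of cumulus matrix and expansion products all had a read, 18 reached a mean of 1 CPM and 12 reached 50 CPM, the level called well expressed from here on. HAS2, the enzyme that makes hyaluronan, had a lowest value of 507, a median of 554 and a highest value of 652 CPM. TNFAIP6, which transfers heavy chains onto hyaluronan, ran from 336 through 409 to 456 CPM. PTX3, the pentraxin that cross-links those chains, was lower and less even, at 59.5, 82.5 and 129 CPM, with its highest value in Control 5. The libraries differed by more in PTX3, with an SD of log2 CPM of 0.38, or 0.29 without Control 5, than in HAS2, with 0.15.

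Other products on the list ranged widely. HSPG2, the basement membrane proteoglycan perlecan, had 1588 CPM, and SDC4, a cell surface proteoglycan, had 621 CPM. TNC, the matricellular protein tenascin C, had 505 CPM, and PTGES, which makes prostaglandin E2, had 402 CPM. ADAMTS1, a protease that cuts versican, had 96.6 CPM. PTGS2, the cyclooxygenase upstream of PTGES, was far lower at 10.2 CPM ± 1.87 (SD, n = 6), with a lowest value of 7.29 and a highest of 12.9. EREG and AREG, the EGF-like ligands that relay the luteinising hormone signal, had 5.82 and 0.255 CPM, and HAPLN1, a link protein of hyaluronan, had 0.0481 CPM and no read in 3 libraries. A count of 0 allows up to 0.189 CPM in the shallowest library, counting 3 reads as the limit and covering counting error only.

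Together the cumulus matrix genes took 1.75% of all counted reads ± 0.127 (SD, n = 6). Control 5 was lowest at 1.501%, while the other libraries lay between 1.74% and 1.85%. Most of that share was VCAN, which was lowest in Control 5 as well. Its SD of log2 CPM of 0.12 became 0.05 when Control 5 was left out.

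Transcripts of granulosa and cumulus cell identity were abundant. On that list 17 of 30 genes were well expressed, with a median SD of log2 CPM of 0.17, beside 0.13 over all 4248 well expressed rows. FST, the activin-binding protein follistatin, ran from 724 through 759 to 829 CPM, an SD of log2 CPM of 0.05, and CDH2, the cell adhesion protein N-cadherin, had 635 CPM with an SD of 0.08. The subunits of the inhibins and activins were abundant, at 1330 CPM for INHBB, 1113 CPM for INHA and 518 CPM for INHBA. GATA4, a transcription factor of the gonad, had 665 CPM, and GJA1, the connexin of gap junctions between cumulus cells, had 492 CPM.

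AMH, a hormone of granulosa cells of growing follicles, had a lowest value of 181 in Control 5, a median of 328 and a highest value of 351 CPM. Control 5 lay apart from the others, and the SD of log2 CPM of AMH was 0.38 with it and 0.13 without it. The receptor FSHR and the aromatase CYP19A1, which makes oestradiol, were low at 4.67 and 1.65 CPM. LHCGR and PRLR, the receptors of luteinising hormone and prolactin, were listed at 0 in all 6 libraries. Whether those zeros come from the row or its annotation was not tested, so they are not read as absent expression. FOXL2, a transcription factor that keeps granulosa cell identity, had 37.2 CPM.

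Oocyte products took 0.180% of all counted reads ± 0.0169 (SD, n = 6), from 0.162% in Control 6 to 0.210% in Control 1. Of 36 listed genes 33 were found, 29 rows reached 1 CPM and 10 were well expressed. UCHL1 alone made up a large part of the share, at a lowest value of 675, a median of 707 and a highest value of 820 CPM. Its SD of log2 CPM was 0.09, the smallest of the list. WEE2, a kinase that holds the egg in meiotic arrest, followed at 163 CPM ± 26.2 (SD, n = 6). KIT, the receptor by which oocytes sense KIT ligand from granulosa cells, had 156 CPM ± 24.2 (SD, n = 6), and KPNA7, an importin of oocytes and early embryos, had 121 CPM ± 22.4 (SD, n = 6).

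BTG4, an adaptor for the decay of maternal mRNA, had 109 CPM ± 23.4 (SD, n = 6). BMP15 had a lowest value of 55.8 in Control 6, a median of 71.4 and a highest value of 85.9 CPM in Control 3, with Control 1 level with it. Its partner GDF9 was lower, at 6.35, 6.86 and 12.7 CPM. DPPA3 and H1-8, a chromatin protein and the linker histone of oocytes, had 65.6 and 61.6 CPM. Of the zona pellucida glycoproteins that coat the egg, ZP2 had 52.8 CPM, ZP4 10.5 CPM and ZP3 3.84 CPM. The kinase MOS, which activates the MAP kinase pathway in the maturing egg, had 39.2 CPM.

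The oocyte genes varied more between libraries than most genes did, with a median SD of log2 CPM of 0.24 over the 10 well expressed ones beside the 0.13 of all well expressed rows. Counting noise was a small part of this at their depth, such as 0.04 for BMP15. Of the 29 oocyte rows at 1 CPM or more, 13 were highest in Control 3 and 11 in Control 1, while 13 were lowest in Control 6. Among all 11806 rows at that level, 11.4% were highest in Control 3 and 19.3% in Control 1, and 13.6% were lowest in Control 6.

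A few low oocyte transcripts stood out in Control 3. ZP3 had 13.0 CPM there and between 1.28 and 3.35 CPM in the other libraries. NLRP5, a maternal protein beneath the egg membrane, had 5.88 CPM there and between 0.305 and 1.1 CPM elsewhere. ASTL, the protease of the cortical granules that cuts ZP2 after fertilisation, had 6.42 CPM in Control 3, and ZAR1, which binds maternal mRNA, had 4.46 CPM. Of the 11806 rows, only 6 were at least 2 times as high in Control 3 as in the next library. These were ZP3, ASTL, ZAR1, NLRP5, NLRP2 and FOXR1, the first 4 of which are on the oocyte list; the last 2 were named after their values were seen. UCHL1 and WEE2 were not among the genes high in Control 3, with 686 and 166 CPM there.

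**Figure D2:**
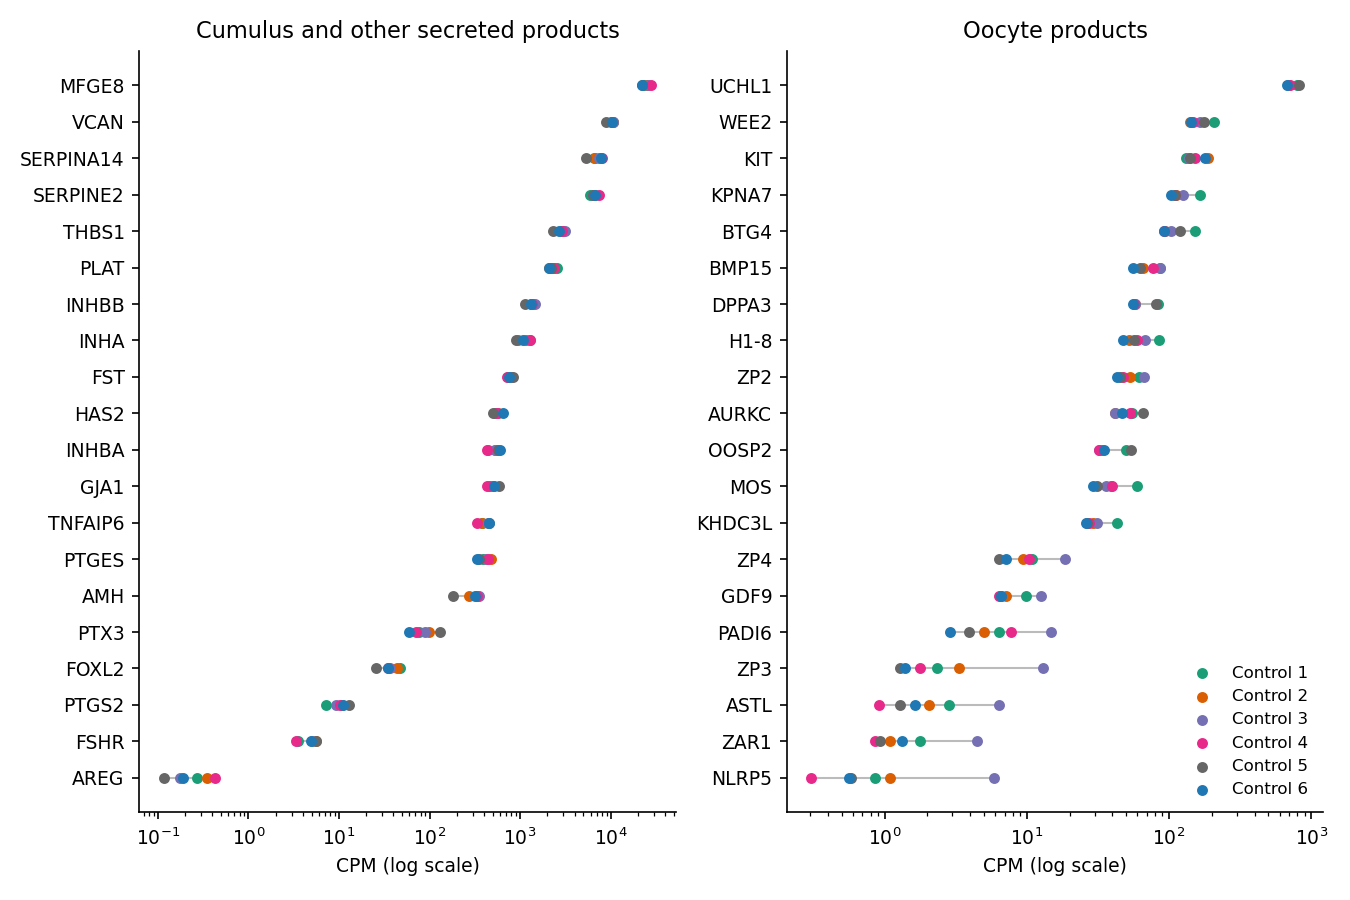
CPM of oocyte and cumulus products (horizontal, log scale), with 1 point for each of the 6 control libraries per gene. ZP3 spreads more than UCHL1, and HAS2 lies between 507 and 652 CPM.

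Markers of other cell types that could cling to a complex were mostly low. The leukocyte list summed to between 6.21 and 11.9 CPM, with CD68, a macrophage lysosomal protein, as its most abundant gene at 4.55 CPM. On the endothelial list KDR, a receptor of VEGF, had 37.2 CPM. The list had a read for 8 of its 10 genes and 4 of them reached 1 CPM, among them TEK at 4.12, VWF at 2.05 and PECAM1 at 1.34 CPM, while the junction and surface proteins CDH5 and EMCN were at 0 in all 6 libraries. Its sum ran from 37.8 to 49.2 CPM. On the oviduct and surface epithelium list CDH1 and PAX8 had 40.5 and 24.4 CPM, and MSLN and KRT7 were at 0. Whether the zeros of these lists come from the rows or their annotation was not tested.

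The list of theca and stroma genes gave mixed values. COL1A1, a chain of collagen I, ran from 808 through 982 to 1362 CPM, and LUM, the matrix proteoglycan lumican, from 242 through 308 to 405 CPM. COL1A2, the other chain of collagen I, had 0.931 CPM, and COL3A1, the collagen III chain, 2.76 CPM. Whether the rows or their annotation set the gap between the collagen I chains was not tested, and COL1A1 is most of the summed level of the list. INSL3, a peptide hormone of theca cells, had 152 CPM ± 19.3 (SD, n = 6), while CYP17A1, the defining androgen-forming enzyme of theca, had a highest mean of 0.0478 CPM in its 2 rows. The summed level of the list ran from 1359.5 to 1990 CPM.

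Among red blood cell genes HBA was uneven, and at a mean of 34.2 CPM it made up most of the list's mean sum of 36.0 CPM. HBA, an alpha-globin, had 2.81 CPM in Control 1, 98.0 in Control 2, 26.7 in Control 3, 10.7 in Control 4, 2.09 in Control 5 and 64.7 in Control 6. HBB, ALAS2 and SLC4A1, which are also defining genes of red cells, were at 0 in all 6 libraries. Whether the rows or their annotation set those zeros was not tested, so they are not read as absent expression. The summed level of the list ran from 2.79 to 103 CPM.

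Across the 4248 well expressed rows, the SD of log2 CPM over the 6 libraries had a median of 0.127, with 5th and 95th percentiles of 0.0573 and 0.293. Counting noise alone would give a median SD of 0.0347, and 30 rows lay at or below their own counting noise. A row was called steady at an SD of at most 0.1, which held for 1297 rows or 30.5%, and variable at an SD of at least 0.5, which held for 37 rows or 0.871%. Of those, 983 steady and 17 variable rows kept their call whichever library was left out. Without Control 5 the median SD was 0.106, with 1918 steady and 27 variable rows. At the limit for being well expressed, SLC25A10 and TXLNA, both at 49.99 CPM, were just outside and YPEL5 at 50.01 CPM was just inside.

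The steadiest rows encode proteins of varied function. PSMD13, a subunit of the proteasome, was among the steadiest, from 124 to 131 CPM with an SD of 0.0136. OTUB1, a deubiquitinase, lay between 106 and 115 CPM. SART3 and SUPT6H, which act in splicing and transcript elongation, had 171 and 166 CPM. ITM2B, a membrane protein, and CNN3, an actin-binding calponin, were the most abundant of the 15 steadiest at 422 and 363 CPM.

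The order within these 15 could not be read from the data. In 13 of the 15, CNN3 and ITM2B excepted, the SD was smaller than counting noise alone would give on average. Leaving out a library in turn kept between 6 and 8 of the 15 among the 15 steadiest, and 5 stayed when libraries were scaled by total count only. Of the 15 most variable rows, 11 to 14 remained under the same omissions, while with any row that had a read counted in, 3 of the 15 most variable and 13 of the 15 steadiest remained.

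**Figure D3:**
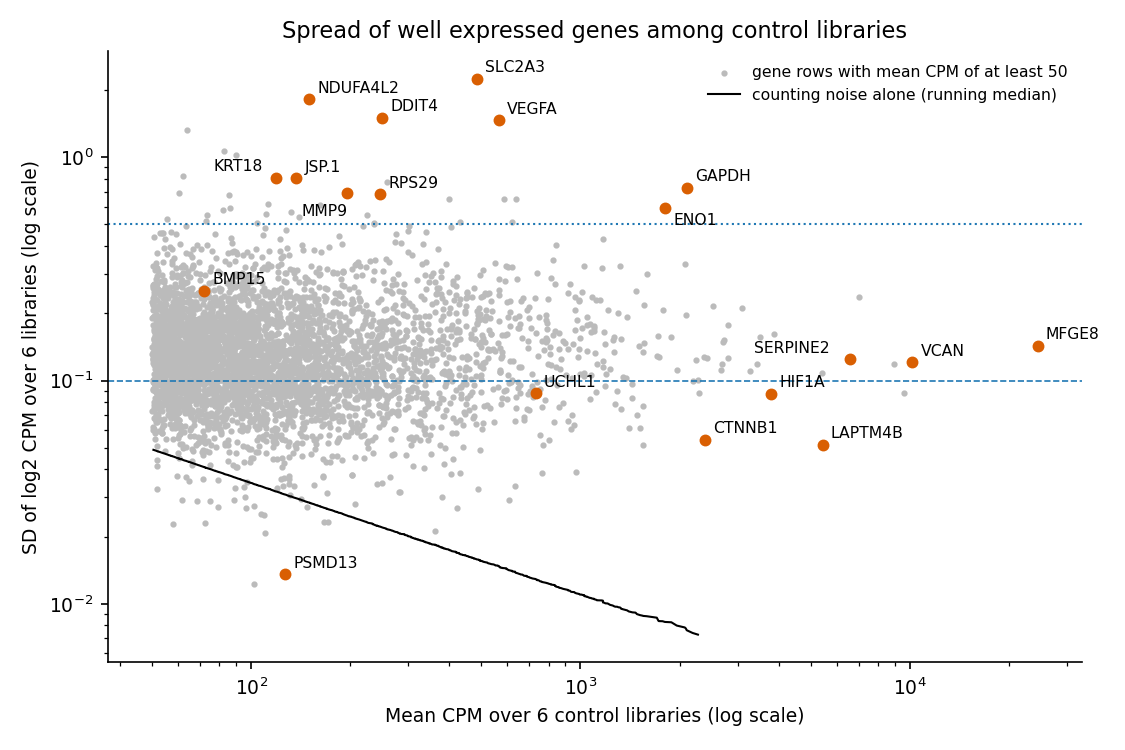
SD of log2 CPM over the 6 control libraries (vertical, log scale) against mean CPM (horizontal, log scale) for the 4248 well expressed gene rows, with the spread that counting noise gives and the limits for steady and variable rows. SLC2A3 tops the plot at an SD of 2.25, and GAPDH is the most abundant of the variable rows at 2103 CPM.

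Many of the most variable genes take part in the response to low oxygen and in glycolysis. SLC2A3, the glucose transporter GLUT3, had 28.7 CPM in Control 1, 1313 in Control 2, 399.5 in Control 3, 167 in Control 4, 52.9 in Control 5 and 939 in Control 6. The highest library was thus 45.7 times the lowest, and the SD of log2 CPM was 2.25. Control 2 and Control 6 were high, Control 1 and Control 5 low, and the other libraries lay between.

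NDUFA4L2, a mitochondrial protein that lowers oxygen use, followed with 27.8, 284, 196, 163, 14.4 and 216 CPM in Control 1 to Control 6. The stress gene DDIT4, an inhibitor of mTOR complex 1, had 45.8, 590.5, 264, 131, 63.1 and 403 CPM. VEGFA, the angiogenic growth factor, had 124, 1192, 583, 487, 113 and 895 CPM. The same libraries were high and low in these as in SLC2A3.

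BHLHE40, a transcriptional repressor of the clock and of the hypoxia response, ran from 16.4 to 151 CPM, and BNIP3, a mitophagy receptor, from 27.0 to 168 CPM. SLC16A3, which exports lactate, ran from 30.5 to 170.4 CPM, and ZNF395 from 28.1 to 123 CPM. SLC2A1, the glucose transporter GLUT1, ran from 123 to 451 CPM. GAPDH, the glycolytic dehydrogenase, had a lowest value of 985, a median of 2345 and a highest value of 3119 CPM, an SD of log2 CPM of 0.73.

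Of 15 well expressed genes on the list of oxygen-responsive genes, 8 were variable and none was steady, with a median SD of 0.55. Of 15 on the glycolysis list, 7 were variable and none was steady, with a median SD of 0.49. For all well expressed rows the median was 0.127 and the variable share 0.871%. The oxygen count was 8 without any single library except Control 2, without which it was 7. The glycolysis count ran from 4 without Control 5 and 5 without Control 1 up to 8. ENO1, the enolase, fell below the limit without Control 5, at an SD of 0.48, and PGK1, a kinase of the pathway, without Control 1 at 0.45 or Control 5 at 0.46. LDHB, the heart-type lactate dehydrogenase, had an SD of 0.11, while LDHA, the muscle-type form, had 0.65, and both were named after their values were seen.

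The library pattern was shared across these lists. Among the 15 glycolysis genes 14 were highest in Control 2 with Control 1 and Control 5 lowest, and among the 15 oxygen-responsive genes 10 were. Of all well expressed rows 154, or 3.63%, had this pattern, and 235 had it when libraries were scaled by TMM factors, with 14 glycolysis and 11 oxygen-responsive genes. The full order of Control 2, 6, 3 and 4, with Control 1 and Control 5 below, was held by 10 genes of each list. Of all well expressed rows 57, or 1.34%, held it. This order was read from SLC2A3, itself on the oxygen list, after its values were seen, so that gene's match was fixed in advance. The looser pattern was likewise chosen with these values known, so the counts are a description and not a test.

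HBA had the same order, as given above, with 98.0 CPM in Control 2 and 2.09 CPM in Control 5. Its part in the result was not tested. The depth of the libraries, highest in Control 2 and lowest in Control 6, is given above. HIF1A itself did not have this order, with 3847 CPM in Control 2, 3726 in Control 1 and 3910 in Control 5. Its lowest value was 3456 CPM in Control 4.

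**Figure D4:**
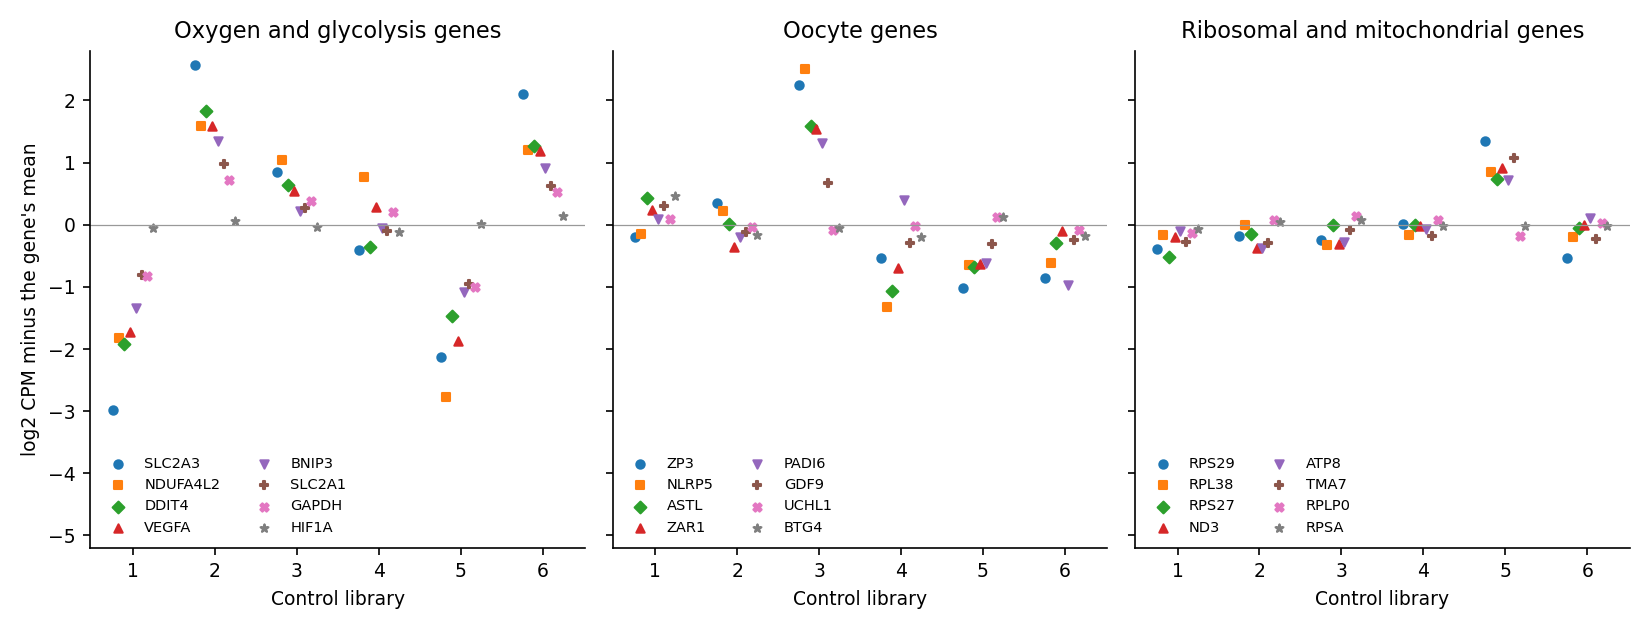
Each gene's log2 CPM minus its mean over the 6 control libraries (vertical) for each library (horizontal), in panels by gene group. In the oxygen and glycolysis genes Control 2 lies at the top and Control 1 and Control 5 at the bottom, except for HIF1A, which stays near its mean, and the third panel also shows TMA7, a translation-associated protein.

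Of the 37 variable rows, 29 were highest in Control 2, 18 lowest in Control 1 and 14 lowest in Control 5. Among all well expressed rows 14.1% were highest in Control 2, 10.97% lowest in Control 1 and 26.0% lowest in Control 5. Outside the lists of oxygen and glycolysis genes there were 22, of which 9 had Control 2 highest with Control 1 and Control 5 lowest. MIF, a cytokine, ran from 104 to 385 CPM, and its SD of 0.69 became 0.40 without Control 5. HEBP1, a haem-binding protein, ran from 30.5 to 82.7 CPM. MMP9, a gelatinase, differed in its order, at 226, 306, 142, 118, 288 and 94.6 CPM in Control 1 to Control 6.

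KRT18, a keratin of simple epithelia that granulosa cells also make, ran from 44.4 CPM in Control 5 to 169 CPM in Control 3, an SD of 0.81. JSP.1, a class I histocompatibility gene, had 331 CPM in Control 2 and between 75.0 and 137 CPM elsewhere, and its SD fell from 0.81 to 0.35 without Control 2. Class I genes resemble each other closely and reads can be split between copies, so its level is uncertain. RPS29 and TMA7 were highest in Control 5. BOLA had 304 CPM in Control 5 and 299 in Control 3, and its lowest value was 118 CPM in Control 1. On the log2 scale with TMM factors it was highest in Control 3. Like the other variable rows outside the 15 most variable and the lists, RPS29, TMA7 and BOLA are named after their values were seen.

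Ribosomal protein genes had a spread close to that of all well expressed rows. Of 76 rows 75 were well expressed, 19 were steady and only RPS29 was variable, with a median SD of 0.14. Steady and variable shares over all well expressed rows were 30.5% and 0.871%. RPLP0, RPS2 and RPSA were the most abundant at 2367, 2284 and 1544 CPM. In Control 5, however, 55 of 75 rows were highest, or 49 with TMM factors, beside 31.3% and 25.4% of all rows at 1 CPM or more. Ribosomal proteins summed to 6.25% of the reads in Control 5 and 5.53% ± 0.406 (SD, n = 6) over all 6 libraries.

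RPS29, a protein of the small subunit, had 569 CPM in Control 5 and between 148 and 218 CPM elsewhere, 3.12 times the median of the other libraries. RPL38 was 2.12 times, RPL35A 1.90 times and RPS27 1.80 times that median, and these were named after their values were seen. These genes have processed copies in mammalian genomes, so the assignment of their reads is uncertain. Its part in the rise was not tested. The first principal component, on which Control 5 scored highest, was led at its positive end by RPS29 together with TMA7 and ND3. TMA7 and ND3 are not on this list. Its negative end was led by NDUFA4L2, SLC2A3 and VEGFA, so it was not a component of ribosomal and mitochondrial genes alone. Without Control 5, 31 of the 75 ribosomal protein rows were steady and none was variable. In that setting the steady rows of all genes also rose, from 1297 to 1918, and the variable ones fell from 37 to 27.

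All 13 mitochondrially encoded genes were well expressed and none was steady or variable, with a median SD of 0.16. Over all well expressed rows 30.5% were steady and 0.871% variable. All 13 were lowest in Control 2, beside 18.9% of all rows at 1 CPM or more, and their median SD without it was 0.10. ND3 and ATP8, subunits of complex I and of ATP synthase, named after their values were seen, were high in Control 5, at 2.17 and 1.79 times the median of the other libraries. The other 11 genes lay between 0.976 times, for ND4, and 1.34 times, for ND2, with ND4L at 1.102 times. Without Control 5 the SD of log2 CPM was 0.17 for ND3 and 0.19 for ATP8, beside 0.47 and 0.39 with it. Together the 13 genes took 2.15% of the reads ± 0.219 (SD, n = 6), from 1.81% in Control 2 to 2.44% in Control 5.

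Interferon-stimulated genes were expressed in these untreated complexes, and most were highest in the same library. IFI27, MX1 and IFI6 were the most abundant at 700.3, 565 and 469 CPM. All 18 rows found reached 1 CPM, 12 were well expressed and none of these was steady or variable, with a median SD of 0.23. Over all well expressed rows 30.5% were steady and 0.871% variable. Of the 18, 15 were highest in Control 1 and 11 lowest in Control 2, beside 19.3% and 18.9% of all rows at 1 CPM or more. MX1, an antiviral GTPase, had 747 CPM in Control 1 and between 452 and 613 CPM in the others.

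The well expressed genes of protein folding and turnover held no variable member, which is near the 0.871% variable among all well expressed rows. Of 13 well expressed heat shock genes 5 were steady, beside 30.5% of all well expressed rows, with a median SD of 0.11. There were 4 steady ones without Control 4 or Control 6 and 10 without Control 5, where the steady rows of all genes rose to 1918. HSPB1 was the most abundant at 3090 CPM, with an SD of 0.21 that became 0.07 without it. HSP90AB1, a cytosolic chaperone, had 2191 CPM, and HSPA8, a constitutive HSP70, had 1961 CPM. The proteasome list had 26 well expressed genes, 4 of them steady, with a median SD of 0.14, and the ER chaperone list 13, 1 of them steady, with 0.19. CANX and HSP90B1, both folding proteins of the ER, had 995 and 785 CPM.

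Cholesterol synthesis genes had a spread close to that of all well expressed rows, with a median SD of 0.13. Of 16 well expressed genes 4 were steady and none variable, beside 30.5% and 0.871% of all well expressed rows. Immediate early genes had 12 well expressed members with a median SD of 0.22, of which FOS was steady and NR4A1 variable. JUND, JUN and FOS had 377, 254 and 203 CPM. Of the cell cycle genes 8 of 25 were well expressed, 1 of them steady, and CCND2, a cyclin of granulosa cells, led with 203 CPM.

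Genes often used as a reference for qPCR differed widely in spread. Of 24 found 19 were well expressed, 8 steady and 2 variable, with a median SD of 0.12. Among all well expressed rows 30.5% were steady and 0.871% variable, with a median SD of 0.127. ATP5F1B, a subunit of ATP synthase, had the smallest SD, 0.05, from 455 through 498 to 519 CPM. SDHA, a subunit of succinate dehydrogenase, had an SD of 0.06, and RPL19 and RPL15, both ribosomal proteins, had 0.08. HPRT1, a purine salvage enzyme, had 0.09 and YWHAZ, an adaptor protein, also 0.09, at 69.6 and 144 CPM.

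ACTB, cytoplasmic beta-actin, had an SD of 0.15, from 679 to 893 CPM, and PPIA, a prolyl isomerase, had 0.12. H2AZ1, a histone variant, had 0.18 with Control 5 and 0.08 without it. GAPDH and PGK1, which are both glycolytic, were the 2 variable ones at 0.73 and 0.51. GAPDH stayed variable whichever library was left out, and PGK1 did not without Control 1 or Control 5.

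**Figure D5:**
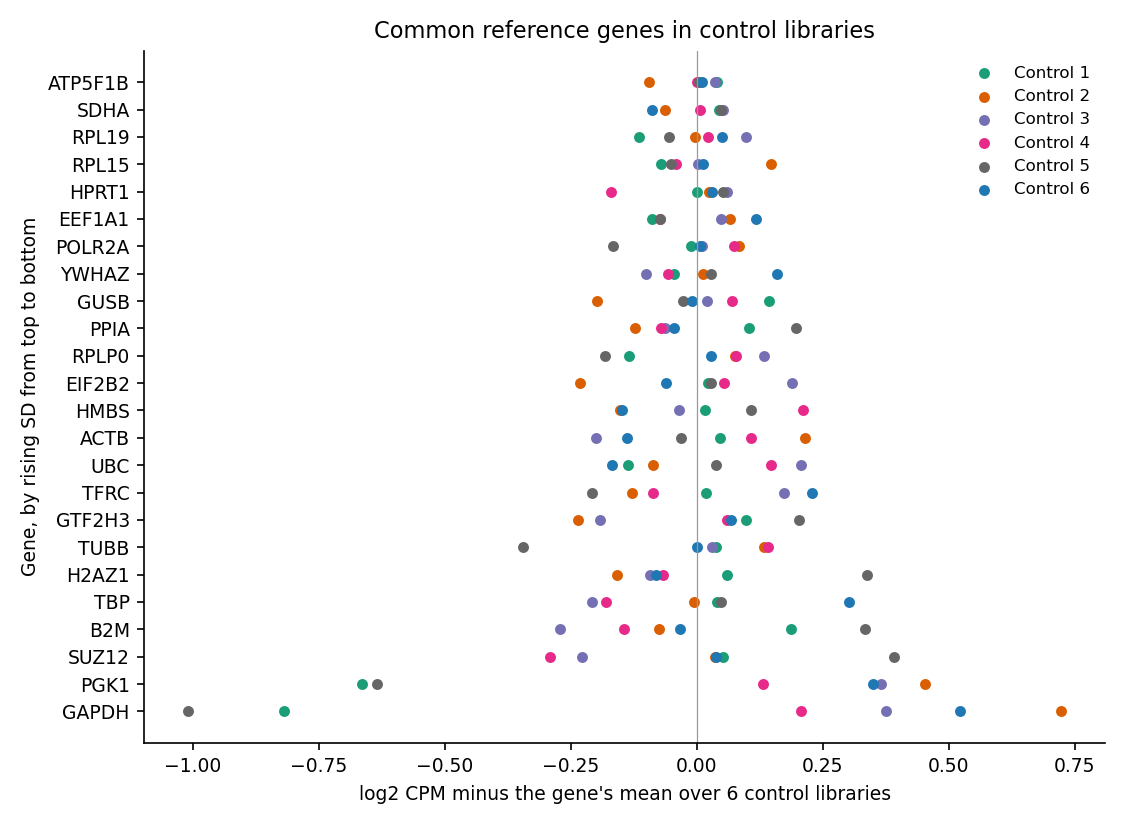
Reference genes in order of rising SD (vertical) with each library's log2 CPM minus the gene's mean (horizontal), 1 point for each of the 6 control libraries. ATP5F1B is the narrowest and GAPDH the widest, at SDs of 0.05 and 0.73.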

How the data were processed

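The authors deposited a table of raw counts, whole numbers per gene row, for 12 libraries; the 6 control columns were used and the 6 other value columns were not. The authors also deposited a table of log2 values, used only as an alternative measure of spread. Per the submitters' processing notes, the tools included STAR 2.5.4b, Trim Galore 0.4.5 and DESeq2, with no roles stated. Not given in the sources used here are the genome build, the annotation, the counting tool and its strand setting. Coordinates are left out for that reason, and a gene's reads may include those of an antisense or overlapping neighbour. No sequences or transcript lengths were used.

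Of 18057 deposited gene rows, 77 exact copies were dropped, leaving 17980; 76 IDs kept several rows. CPM is the count over the library total. Log2 CPM used TMM factors of edgeR 4.0.16 in R 4.3.3 and a prior count of 2. Spread is the SD of log2 CPM over 6 libraries, and counting noise was taken from the counts. Further steps used Python 3.11.15 and numpy 2.4.6; DESeq2 1.42.0 gave alternative size factors. The spread calculation was tested on simulated counts scaled by total count, with the spread drawn separately for each gene. TMM factors and shifts that genes share within a library were not covered by it. No groups were compared and no p-value was computed.

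The text names the 30 rows of highest mean CPM, the 15 of smallest and the 15 of largest spread among rows of at least 50 CPM, members of the oocyte, cumulus, granulosa and reference lists, and the 3 most abundant genes of each other list; further genes, such as other members of the cell type, glycolysis, ribosomal and mitochondrial lists, were chosen after their values were seen. Some genes this rule names are not reported here. The members, lists and limits were chosen with earlier results of these data known.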

Additional observations from a re-analysis of the deposited data

Results flagged for a closer look

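Of 195 values checked, 15, or 7.69%, had a library whose gap to its nearest neighbour was large beside the range of all 6; chance sets apart about 1 in 20, here 9.75. Control 5 was the library set apart in 11 of them, Control 2 in 2, and Control 3 and Control 4 in 1 each.

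On the log2 CPM scale, Control 5 was low for VCAN at 13.08 (others 13.29 to 13.41), HSPB1 at 11.17 (11.57 to 11.76), LTBP1 at 11.10 (11.44 to 11.52) and DLG5, a scaffold of cell polarity, at 10.65 (11.03 to 11.22). It was also low for TUBB, a beta-tubulin, at 9.69 (10.03 to 10.17), GATA4 at 9.07 (9.39 to 9.51), JUND at 7.97 (8.55 to 8.89), AMH at 7.46 (8.12 to 8.46) and PAPPA, a protease of IGF-binding proteins, at 5.01 (5.47 to 5.69). It was high for CNN3 at 8.54 (8.49 to 8.51). Its cumulus matrix share of reads was 1.501%, beside 1.74% to 1.85% in the others.

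Control 2 was low for ATP5F1B at 8.86 (8.95 to 8.99) and high for JUN at 8.37 (7.79 to 7.98). Control 4 was low for HPRT1 at 5.95 (6.12 to 6.18). Control 3 was low for LOX, which cross-links collagen, at -0.49 (0.22 to 0.61), where few reads lie behind each value.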

How the results depend on the processing

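No paired analysis was possible because only 1 group is described. Of the summary values, 210 changed by less than their spread between libraries or by less than 1.5 times under the alternatives, and 10 moved by more. The share of the 100 most abundant rows was 22.1% without mitochondrially encoded genes. With any row that had a read, the median SD was 0.210, 2453 rows were variable, and the cumulus matrix median SD was 0.290. At a mean of at least 100 CPM 709 rows were steady, and at 20 CPM 57 were variable. With edgeR's tagwise biological coefficient of variation on the log2 scale 0 rows were steady and 9 variable, and the glycolysis median was 0.329; this measure is drawn toward a trend over all genes. Without Control 2 the mitochondrially encoded median was 0.103, and leaving out each library gave 0.103 to 0.170. Under the same omissions the share of the 100 rows was 22.7% to 23.1%, the rows making up 50% of reads 709 to 723, the median SD 0.106 to 0.134, steady rows 1251 to 1918, variable rows 27 to 50, the oxygen list median 0.461 to 0.617, the glycolysis median 0.431 to 0.539 and the oocyte median 0.190 to 0.264. Of the other values, 1653 held and 122 moved, 56 of them gene SDs under edgeR's coefficient. Counts of rows highest or lowest in a library were also taken with TMM and DESeq2 scaling for the ribosomal, mitochondrial, interferon and oocyte lists. Among these the ribosomal count moved most, from 55 to 49 of 75 with TMM. With either scaling the full order was held by 12 of 15 glycolysis and 11 of 15 oxygen-responsive genes. That scaling, and the counts of steady and variable list members without each library, were chosen after seeing the data. Dividing CPM by coding length was not run, because no lengths were at hand. With 6 libraries an SD is itself imprecise, and below about 50 CPM counting noise takes a growing part of it.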

Other observations

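On the second principal component, which held 26.8% of the variance, Control 1 scored 9.08 where the others lay between -5.12 and 4.98. Control 4 was set apart on the third principal component, which held 10.4% of the variance. LENG8 had 395 CPM there and between 139.8 and 254 CPM in the others, and SRRM2, a component of nuclear speckles, had 1814 CPM there and between 812 and 1326 CPM in the others. Both were chosen after their values were seen.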
